A study of Mus musculus with 6 samples.

Results

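The integrin chains described here were 9 genes, Itgae, Itgb7, Itga4, Itgb1, Itgal, Itgb2, Itgav, Itga6 and Itgb3. They were chosen by name as integrin chains of T cells, with earlier results of these data known. Every probe set that the platform annotation gives to 1 of these genes was taken, which gave 26 of 45101 probe sets on Affymetrix Mouse430_2 arrays. Of these, 21 passed the filter on dim probe sets and were tested, and all 9 genes had at least 1 of them, out of 23484 tested probe sets in all.

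The RNA came from T cells recovered from BALB/c mice deficient in Rag1, which have no T or B cells of their own. Each host had been given wild-type natural regulatory T cells (nTreg) and 500000 wild-type regulatory T cells induced in culture (iTreg), and per the labels' treatment protocol such transfers went into the peritoneal cavity of mice with colitis. At day 125, spleens and mesenteric nodes of 14 mice were pooled and their CD4-stained cells were sorted. The EGFP reporter reports Foxp3, the transcription factor of regulatory T cells, and Thy1.1 marks the transferred iTreg cells. The groups were ex-iTreg cells (Thy1.1-positive without EGFP), iTreg cells (positive for both) and nTreg cells (EGFP-positive, Thy1.1-negative), with 2 arrays each. All 3 groups shared the same hosts, treatment and tissues. Whether pool 1 and pool 2 of a population came from different mice is not in the labels, and p-values therefore measure only the spread between pools, which may be technical.

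Integrins are surface receptors made of an alpha and a beta chain, and each dimer binds its own set of ligands on other cells or in the matrix. The Itgae chain (CD103) pairs only with Itgb7 and binds E-cadherin on epithelial cells, and TGF-beta is known to induce it in T cells. Itga4 pairs with Itgb7 to bind the gut vessel addressin MAdCAM, or with Itgb1 to bind Vcam1 and fibronectin. Itgal and Itgb2 form LFA-1, which binds the ICAM proteins and holds T cells to antigen-presenting cells. Itgav pairs with Itgb1, Itgb3, Itgb5, Itgb6 or Itgb8, several of which free TGF-beta from its latent form, and Itga6 pairs with Itgb1 or Itgb4 to bind laminins.

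Values are log2 expression as deposited, and a difference is in log2 units ± the standard error that limma gave, on 2 arrays a group. Adjusted p-values are from limma with Benjamini-Hochberg adjustment over all 23484 tested probe sets, and a difference is said to rise or fall only where this is under 0.05. A gene is described by its brightest probe set unless another is named. The filter level was 5.48, the median of all values, and a level under it is near background. Array medians lay between 5.47 and 5.49. Levels of different probe sets are not compared, since each has its own binding strength, and in pooled RNA fewer cells with a transcript and less transcript per cell cannot be told apart.

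The labels could be checked only in part. The 1 annotated Foxp3 probe set was under the filter level in all 6 arrays, so it does not check the sort. Of 10 CD4 T cell markers, 8 were annotated and all of these were above the filter level in every group. Other cells' markers also gave signal. Of 17 myeloid cell markers 15 were tested, and 13 of these were higher and 0 lower in iTreg than in nTreg arrays, with 0 higher and 14 lower in ex-iTreg than in iTreg arrays and 7 higher and 1 lower in ex-iTreg than in nTreg arrays. Their summed linear level lay between 10085 and 10305 in ex-iTreg, 14436 and 15396 in iTreg and 10645 and 10649 in nTreg arrays. Of the 17 myeloid markers, 15 were above the filter level in both ex-iTreg arrays, 15 in both iTreg arrays and 14 in both nTreg arrays. Itgam and Vsig4 were near background in every array. Of 7 tested CD8 T and NK cell markers, 5 were higher and 2 lower in ex-iTreg than in iTreg arrays, and 5 were higher and 1 lower in ex-iTreg than in nTreg arrays. Their summed level lay between 1120 and 1169 in ex-iTreg, 461 and 481 in iTreg and 452 and 483 in nTreg arrays, with Ncr1 near background in all. Cd8b1 was under the filter level in both ex-iTreg arrays and above it in the iTreg and nTreg arrays. Klrk1 and Klrc1, counted in these lists, were under the filter level in all iTreg and nTreg arrays. They passed the filter only through the ex-iTreg arrays and so had to be higher there. Of 4 tested B cell markers, 3 were lower in ex-iTreg arrays in both comparisons. None of 4 tested platelet markers passed in any of the 3 comparisons by limma, and Pf4, Ppbp, Gp5, Gp6 and Clec1b were near background in all arrays.

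Most of the integrin chains differed between the populations, by less than 2-fold in most cases. In ex-iTreg minus iTreg, 7 of the 9 genes passed the test, 3 higher (Itga4, Itgb1 and Itgb3) and 4 lower (Itgae, Itgb7, Itgav and Itga6), where 37% of all tested probe sets passed, 17.7% higher and 19.3% lower. In ex-iTreg minus nTreg, 6 passed, with Itgb1 and Itgb3 higher and Itgae, Itgb7, Itgav and Itga6 lower, against 36.4% of all, 18.1% higher and 18.4% lower. In iTreg minus nTreg, 7 passed, with Itgb7, Itgb2, Itga6 and Itgb3 higher and Itgae, Itgb1 and Itgav lower, against 29.1% of all, 14.6% higher and 14.5% lower. Over all 21 probe sets the counts were 17, 13 and 15. The 17 include the Itgb3 probe set 1421511_at, which passed the filter only through the ex-iTreg arrays. The median absolute difference of the 9 genes was 0.55, 0.53 and 0.27, against 0.20, 0.19 and 0.17 over all tested probe sets. A 2-fold difference was reached by 1 gene in ex-iTreg minus iTreg (Itgae), by 3 in ex-iTreg minus nTreg (Itgae, Itgav and Itgb3) and by 0 in iTreg minus nTreg. The comparisons share arrays, so their counts are not independent of each other. The count in iTreg minus nTreg rested on small differences: it was between 2 and 4 with any single array left out, 3 without nTreg pool 1, nTreg pool 2 or iTreg pool 1, 2 without iTreg pool 2, and 4 without either ex-iTreg pool.

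**Figure D1:**
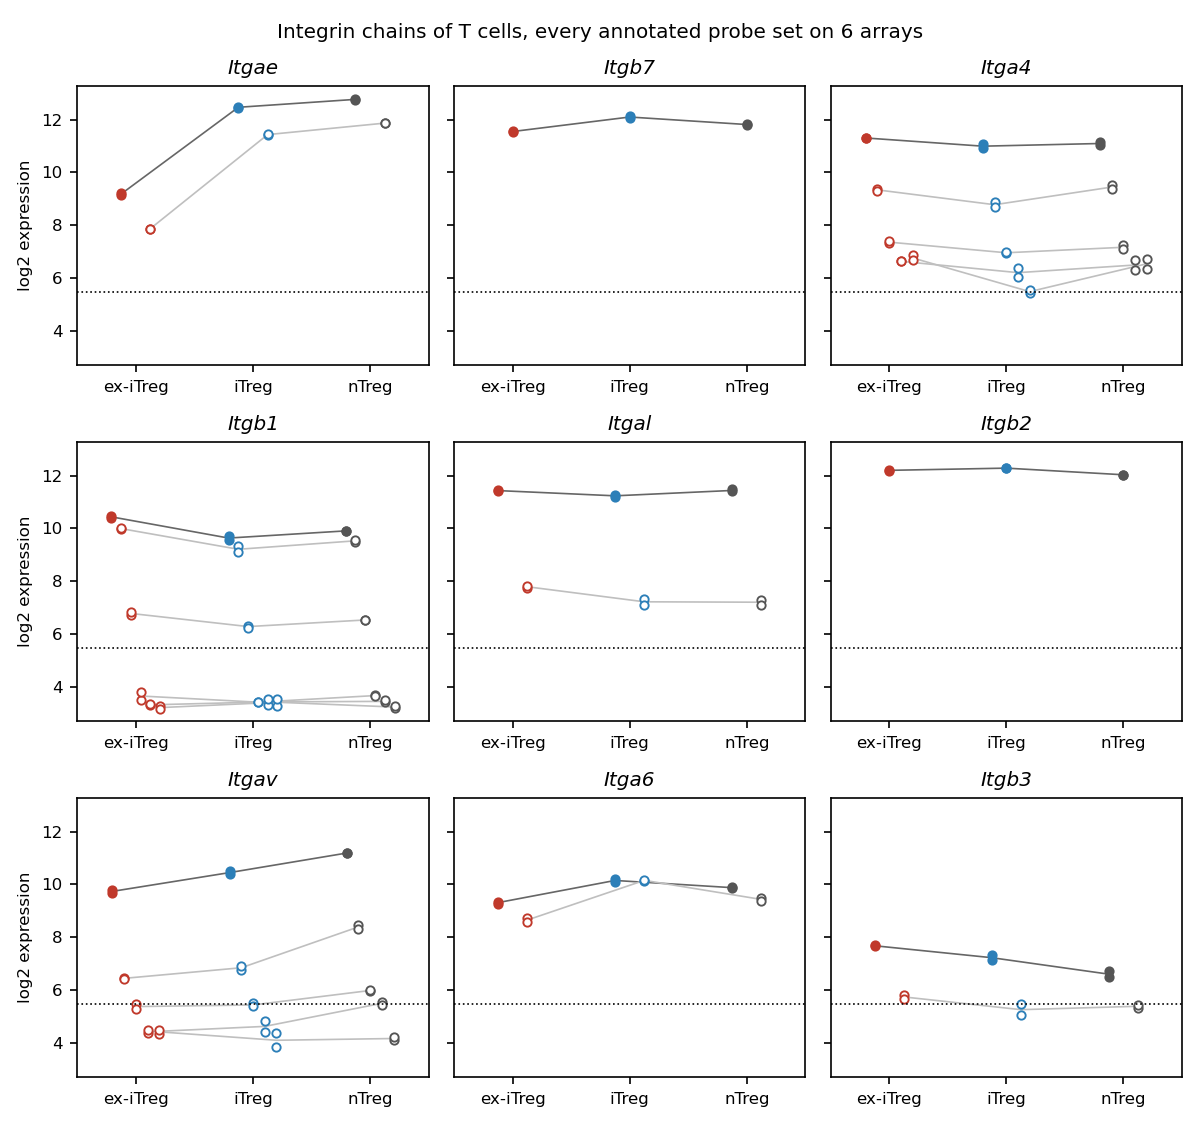
Log2 expression (vertical axis) of every annotated probe set of the 9 genes in ex-iTreg, iTreg and nTreg arrays, 1 point per array; filled points are the brightest probe set of a gene, open points its others, lines join group means, and the dotted line is the filter level of 5.48. Both Itgae probe sets fall steeply in ex-iTreg arrays, while Itgb7, Itgal and Itgb2 stay within 0.6 of each other across groups on their brightest probe sets.

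Itgae had the largest differences of the 9 genes in both comparisons of ex-iTreg arrays. Its brightest probe set, 1447541_s_at, read 9.14 and 9.23 in ex-iTreg arrays, 12.49 and 12.45 in iTreg arrays, and 12.80 and 12.75 in nTreg arrays. The ex-iTreg arrays were far below all others, and the iTreg arrays lay just below the nTreg arrays with no overlap. Itgae fell by 3.28 ± 0.07 in ex-iTreg minus iTreg (adjusted p = 5.38e-06, limma), a 9.74-fold lower level, and fell by 3.58 ± 0.07 in ex-iTreg minus nTreg (limma, adjusted p = 1.13e-06), 12-fold lower. Even so the ex-iTreg arrays were well above the filter level, so a transcript signal remained in these arrays.

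The other Itgae probe set, 1449216_at, gave the same order. It read 7.88 and 7.88 in ex-iTreg arrays, 11.42 and 11.45 in iTreg arrays and 11.88 and 11.86 in nTreg arrays. It fell by 3.56 ± 0.06 in ex-iTreg minus iTreg and was 16-fold lower in ex-iTreg than in nTreg arrays, and counted from the largest decrease it ranked 6 and 19 of 23484 tested probe sets, where the brighter probe set ranked 13 and 35. Between the reporter-positive populations the step was small on both: Itgae fell by 0.30 ± 0.07 (adjusted p = 0.0194, limma) on the brighter probe set in iTreg minus nTreg and by 0.44 ± 0.06 (adjusted p = 0.00376, limma) on the other. The first of these calls was lost when nTreg pool 1 or either pool of iTreg cells was left out (adjusted p = 0.0663, 0.0662 and 0.0943, limma), while the call on 1449216_at passed in every alternative that was run.

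Itgb7, the only beta chain that Itgae pairs with, moved much less. Its 1 probe set read 11.57 and 11.54 in ex-iTreg arrays, 12.08 and 12.12 in iTreg arrays and 11.83 and 11.81 in nTreg arrays. The iTreg arrays were the highest and the ex-iTreg arrays the lowest, with no overlap between any groups. Itgb7 fell by 0.55 ± 0.06 in ex-iTreg minus iTreg (adjusted p = 0.00118, limma), which is 1.46-fold lower, and fell by 0.27 ± 0.06 in ex-iTreg minus nTreg (limma, adjusted p = 0.0168). Itgb7 rose by 0.28 ± 0.06 in iTreg minus nTreg (adjusted p = 0.0173, limma), the opposite direction to Itgae. The call in ex-iTreg minus nTreg was lost without nTreg pool 1 or either ex-iTreg pool (adjusted p from 0.0522 to 0.0933, limma), and that in iTreg minus nTreg without nTreg pool 2 or either iTreg pool (adjusted p from 0.0549 to 0.0891, limma). The myeloid markers were also highest in iTreg arrays. In ex-iTreg minus nTreg, 7 of them were higher and 1 lower, and their summed level was lower in ex-iTreg than in nTreg arrays. Their part in the Itgb7 differences was not tested.

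Itgae and its partner were set against each other within each array, so that only unequal change between groups was read. The change of Itgae minus the change of Itgb7 was -2.73 ± 0.07 in ex-iTreg minus iTreg, -3.32 ± 0.07 in ex-iTreg minus nTreg and -0.58 ± 0.07 in iTreg minus nTreg (adjusted p = 6.42e-06, 1.44e-06 and 0.00252, limma). The log2 ratio was -2.42 and -2.31 in ex-iTreg arrays, 0.41 and 0.33 in iTreg arrays and 0.97 and 0.94 in nTreg arrays, and only these steps between groups have a meaning. In both comparisons of ex-iTreg arrays Itgae differed in its change from all 8 other chains, by between -2.44 (Itga6) and -4.09 (Itgb1) against iTreg arrays and between -2.13 (Itgav) and -4.66 (Itgb3) against nTreg arrays. The same test against every other tested probe set passed for 100% and 99.9% of them after rounding, so these counts say only how far Itgae moved. In iTreg minus nTreg, 5 of the 8 passed, where 64.8% of all tested probe sets did. Itgae changed less than Itgav, by a difference of 0.44 ± 0.07, and more towards lower values than Itgb7, Itgb2, Itga6 and Itgb3. Against Itga4, Itgb1 and Itgal the difference did not pass, with 95% intervals of -0.40 to 0.00, -0.20 to 0.15 and -0.28 to 0.08. With 2 arrays a side the smallest two-sided p of an exact permutation test is 0.33, and the calls rest on the spread that limma shares over all probe sets.

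The genes whose profile lay nearest to that of Itgae over the 6 arrays, by Euclidean distance between centred log2 values among 11014 other genes, were Nxpe4, Il2ra, Sdc4, Penk and Itih5, at distances of 0.316, 0.340, 0.369, 0.518 and 0.584. Il2ra, the alpha chain of the interleukin receptor CD25, had means of 6.77, 9.95 and 10.02 in ex-iTreg, iTreg and nTreg arrays, and Sdc4, a cell-surface proteoglycan, had 5.78, 8.81 and 9.24. Penk, the enkephalin precursor, had 8.14, 11.19 and 11.99. The ex-iTreg means of Nxpe4 (5.29) and Itih5 (5.11) were near background. The profiles nearest to Itgb7 were those of Hdac6, Ctu1, Tbc1d9b, Cst3 and Cnp, at distances between 0.0524 and 0.0851, and Cst3 is also on the myeloid marker list.

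Itga4 and Itgb1 moved the other way in ex-iTreg minus iTreg, where both rose. Itga4 read 11.30 and 11.31 in ex-iTreg arrays, 10.93 and 11.07 in iTreg arrays and 11.15 and 11.05 in nTreg arrays on its brightest probe set, 1436037_at. The ex-iTreg arrays were the highest, and the iTreg and nTreg arrays overlapped. Itga4 rose by 0.31 ± 0.08 in ex-iTreg minus iTreg (adjusted p = 0.022, limma), and this call was lost without iTreg pool 1 or either ex-iTreg pool (adjusted p from 0.0911 to 0.108, limma). The differences of 0.21 ± 0.08 in ex-iTreg minus nTreg and -0.10 ± 0.08 in iTreg minus nTreg did not pass (adjusted p = 0.08 and 0.365, limma).

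The other 4 Itga4 probe sets were all above their iTreg level in ex-iTreg arrays too, by 0.40, 0.43, 0.56 and 1.28, and 3 of these 4 differences passed. The exception was 1450155_at (adjusted p = 0.0705, limma), and 1421194_at lost its call without ex-iTreg pool 2 (adjusted p = 0.0544, limma). The size of the step thus depended on the probe set. In iTreg minus nTreg, 1456498_at and 1427615_at fell by 0.67 ± 0.09 and by 1.06 ± 0.14 (adjusted p = 0.00402 and 0.00299, limma), while the brightest probe set did not pass. Of these, 1427615_at read 5.42 and 5.55 in iTreg arrays, at the filter level. None of the 5 passed in ex-iTreg minus nTreg, where their differences ranged from -0.11 to 0.22.

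Itgb1, the common beta chain of matrix-binding integrins, was higher in cells without the reporter. It read 10.41 and 10.47 in ex-iTreg arrays, 9.72 and 9.55 in iTreg arrays and 9.90 and 9.91 in nTreg arrays on 1426918_at. The 3 groups did not overlap, with ex-iTreg arrays highest and iTreg arrays lowest. Itgb1 rose by 0.80 ± 0.08 in ex-iTreg minus iTreg, 1.75-fold, and by 0.53 ± 0.08 in ex-iTreg minus nTreg, 1.45-fold (limma, adjusted p = 0.000719 and 0.00294). It fell by 0.27 ± 0.08 in iTreg minus nTreg (adjusted p = 0.0448, limma), and only iTreg pool 1 could be left out with the call kept. It was also lost with the pool number as a block (adjusted p = 0.0717, limma).

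Of the 5 other Itgb1 probe sets, 1452545_a_at and 1427771_x_at were tested and moved the same way as the brightest in all 3 comparisons. They rose by 0.78 ± 0.09 and by 0.50 ± 0.07 in ex-iTreg minus iTreg and by 0.46 ± 0.09 and 0.25 ± 0.07 in ex-iTreg minus nTreg. The difference of 0.25 lost its call without any 1 array, and that of 0.46 lost it without ex-iTreg pool 2 (adjusted p = 0.0563, limma). In iTreg minus nTreg both calls were lost without either nTreg pool, iTreg pool 2 or either ex-iTreg pool. A suffix of x marks probe sets that may also bind other transcripts. The summed level of the CD8 T and NK cell markers was likewise highest in ex-iTreg arrays. Of 7 tested, 5 were higher and 2 lower there than in iTreg arrays. The part of these markers in the results for Itga4 and Itgb1 was not tested. The remaining 3 Itgb1 probe sets read between 3.17 and 3.80 in every array, near background, and were not tested.

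Promoter sequences from RefSeq (GRCm38.p6) were listed for 4 of the 9 genes, Itgb7, Itga4, Itgb1 and Itgav, and are shown because Itgb7 and Itgav fell and Itga4 and Itgb1 rose in ex-iTreg minus iTreg. Each is the 250 bases before the annotated start, 5′ to 3′ on the gene's strand. Capitals mark a SMAD box (CAGAC or its other strand GTCTG), the core bound by TGF-beta's signal transducers, or a RUNX core (TGTGGT or its other strand ACCACA), with no base shared by both motifs in these windows.
Itgb7 (chr15:102231936-102232185, minus strand): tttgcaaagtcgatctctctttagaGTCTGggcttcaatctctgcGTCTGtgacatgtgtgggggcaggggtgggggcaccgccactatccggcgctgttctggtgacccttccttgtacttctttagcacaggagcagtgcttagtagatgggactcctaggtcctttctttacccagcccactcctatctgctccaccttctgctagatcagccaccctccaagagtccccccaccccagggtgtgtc
Itgav (chr2:83724147-83724396, plus strand): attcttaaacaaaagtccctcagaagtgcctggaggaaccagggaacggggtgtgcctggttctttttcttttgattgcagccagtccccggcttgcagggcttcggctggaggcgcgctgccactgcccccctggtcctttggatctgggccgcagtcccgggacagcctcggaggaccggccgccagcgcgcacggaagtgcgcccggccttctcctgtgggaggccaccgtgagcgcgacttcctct
Itga4 (chr2:79255176-79255425, plus strand): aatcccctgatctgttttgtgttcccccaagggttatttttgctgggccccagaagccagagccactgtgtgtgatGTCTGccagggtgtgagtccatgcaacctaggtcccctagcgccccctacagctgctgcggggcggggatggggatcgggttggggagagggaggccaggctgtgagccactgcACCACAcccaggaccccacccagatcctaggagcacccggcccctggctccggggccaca
Itgb1 (chr8:128685404-128685653, plus strand): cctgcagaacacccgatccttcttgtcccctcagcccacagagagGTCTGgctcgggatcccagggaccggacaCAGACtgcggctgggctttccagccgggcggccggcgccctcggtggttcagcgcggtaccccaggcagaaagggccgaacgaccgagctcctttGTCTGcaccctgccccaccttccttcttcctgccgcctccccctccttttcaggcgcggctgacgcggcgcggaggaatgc
The SMAD box letters stood 2 times in the window of Itgb7, 3 times in that of Itgb1, 1 time in that of Itga4 and 0 times in that of Itgav. They stood in 42.2% of the 32851 listed promoters of the same length, and the RUNX core, found 1 time in Itga4 and 0 times in the others, stood in 14%. A match is a description of letters and not a site.

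On their brightest probe sets, the chains of LFA-1 differed by at most 0.25. Itgal read 11.46 and 11.42 in ex-iTreg arrays, 11.21 and 11.27 in iTreg arrays and 11.48 and 11.41 in nTreg arrays on its brightest probe set, 1435560_at. The iTreg arrays were the lowest, and the ex-iTreg and nTreg arrays overlapped. None of its differences passed, at 0.20 ± 0.07, -0.01 ± 0.07 and -0.20 ± 0.07 (adjusted p = 0.0566, 0.957 and 0.0613, limma), with 95% intervals of 0.04 to 0.36, -0.16 to 0.15 and -0.36 to -0.05. The dimmer probe set 1425367_at read 7.75 and 7.84 in ex-iTreg arrays, 7.33 and 7.11 in iTreg arrays and 7.29 and 7.12 in nTreg arrays. It rose by 0.57 ± 0.10 and 0.59 ± 0.10 in the comparisons of ex-iTreg with iTreg and with nTreg arrays (adjusted p = 0.00674 and 0.00572, limma), so the finding for Itgal depends on the probe set.

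Itgb2, the beta chain that all leukocytes carry, had 1 probe set, at 12.22 and 12.19 in ex-iTreg arrays, 12.30 and 12.28 in iTreg arrays and 12.03 and 12.04 in nTreg arrays. The groups did not overlap, although all 6 values lay close together. Itgb2 rose by 0.25 ± 0.06 in iTreg minus nTreg (adjusted p = 0.0241, limma), which no array could be left out of without losing the call. The differences of -0.08 ± 0.06 in ex-iTreg minus iTreg and 0.17 ± 0.06 in ex-iTreg minus nTreg did not pass (adjusted p = 0.32 and 0.0721, limma). Myeloid cells carry this chain too, and their markers were likewise highest in iTreg arrays; their part in the difference was not tested.

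**Figure D2:**
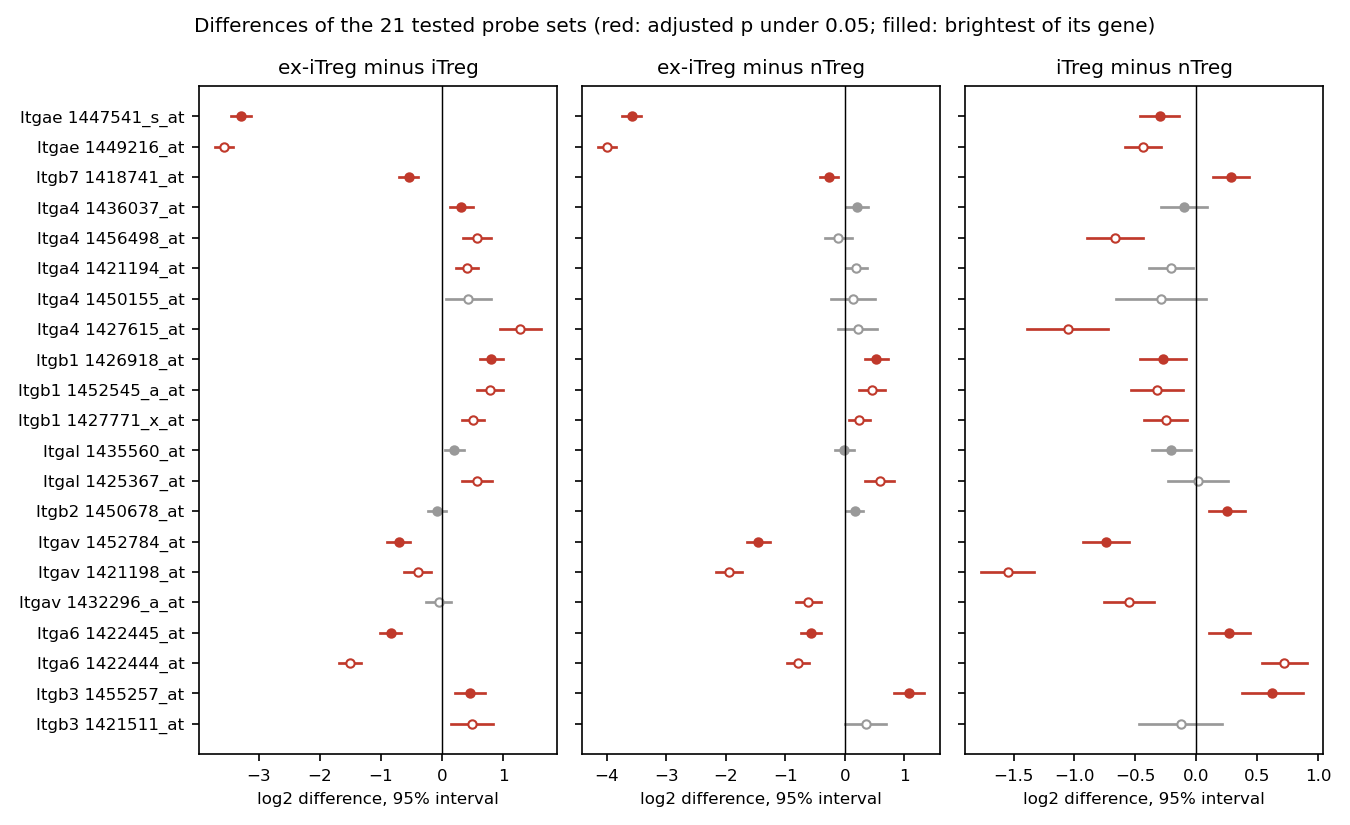
Log2 difference with its 95% interval (horizontal axis) for the 21 tested probe sets in ex-iTreg minus iTreg, ex-iTreg minus nTreg and iTreg minus nTreg; red marks an adjusted p under 0.05 and filled points the brightest probe set of a gene, and the panels have axes of their own. Itgae stands alone at differences beyond -3 in both comparisons of ex-iTreg arrays, and the probe sets of Itga4, Itgal and Itgav differ from each other in size or in call. The Itgb3 probe set 1421511_at passed the filter only through the ex-iTreg arrays, and its color is not read.

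Itgav fell in a graded order, from nTreg arrays as the highest. It read 9.67 and 9.81 in ex-iTreg arrays, 10.51 and 10.39 in iTreg arrays and 11.20 and 11.18 in nTreg arrays on 1452784_at. Each group lay apart from the next. Itgav fell by 0.71 ± 0.08 in ex-iTreg minus iTreg, by 1.45 ± 0.08 in ex-iTreg minus nTreg and by 0.74 ± 0.08 in iTreg minus nTreg (adjusted p = 0.00115, 4.65e-05 and 0.00153, limma), and its ex-iTreg level was 2.74-fold below that of nTreg arrays.

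The probe set 1421198_at put most of the step of Itgav between iTreg and nTreg arrays. It read 6.45 and 6.43 in ex-iTreg arrays, 6.77 and 6.92 in iTreg arrays and 8.48 and 8.30 in nTreg arrays, and fell by 1.55 ± 0.09 in iTreg minus nTreg. In ex-iTreg minus iTreg it fell by 0.40 ± 0.09, a difference whose call was lost without iTreg pool 2 or either ex-iTreg pool (adjusted p from 0.0679 to 0.0789, limma). Another tested probe set, 1432296_a_at, fell by 0.55 ± 0.09 in iTreg minus nTreg and did not pass in ex-iTreg minus iTreg (-0.06 ± 0.09, adjusted p = 0.616, limma), with ex-iTreg and iTreg arrays near the filter level. The other 2 probe sets were near background in at least 5 of the 6 arrays and were not tested.

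Itgb8, which pairs only with Itgav in a dimer that activates TGF-beta, is not among the 9 chains but bears on Itgav. It read 3.59 and 3.81 in ex-iTreg arrays, 7.95 and 7.96 in iTreg arrays and 9.46 and 9.24 in nTreg arrays. The ex-iTreg arrays were near background, so no size or test of their differences is given. Itgb8 passed the filter only through the iTreg and nTreg arrays and so had to be lower in ex-iTreg arrays. The iTreg arrays lay between the others, and Itgb8 fell by 1.40 ± 0.10 in iTreg minus nTreg (adjusted p = 0.000443, limma). Itgav and Itgb8 thus had the same order of groups, although for Itgb8 the filter fixed the ex-iTreg arrays as the lowest.

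Itgb3, a beta chain best known from platelets and the vitronectin receptor, had the reverse order of Itgav. It read 7.71 and 7.65 in ex-iTreg arrays, 7.14 and 7.31 in iTreg arrays and 6.48 and 6.72 in nTreg arrays on 1455257_at. No groups overlapped. Itgb3 rose by 0.45 ± 0.10 in ex-iTreg minus iTreg, by 1.08 ± 0.10 in ex-iTreg minus nTreg and by 0.62 ± 0.10 in iTreg minus nTreg (adjusted p = 0.0163, 0.000486 and 0.00725, limma). The call in ex-iTreg minus iTreg was lost without iTreg pool 1 or either ex-iTreg pool (adjusted p from 0.0654 to 0.086, limma). The dimmer probe set 1421511_at read 5.80 and 5.68 in ex-iTreg arrays, 5.04 and 5.47 in iTreg arrays and 5.34 and 5.43 in nTreg arrays, so it was above the filter level only in ex-iTreg arrays. Since it passed the filter only through those arrays, no test of it is given. With the mean of both Itgb3 probe sets, the difference in iTreg minus nTreg was 0.25 and did not pass (adjusted p = 0.119, limma). The summed level of CD8 T and NK cell markers was also highest in ex-iTreg arrays, although 2 of 7 tested were lower there than in iTreg arrays and 5 higher. The part of these markers in the Itgb3 result was not tested.

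Itgb5, a further partner of Itgav, could not be given a direction in ex-iTreg minus iTreg, since its probe sets disagreed. The brightest, 1456133_x_at, read 9.35 and 9.35 in ex-iTreg arrays, 8.67 and 8.63 in iTreg arrays with a mean of 7.98 in nTreg arrays, and rose by 0.70 ± 0.06 in ex-iTreg minus iTreg. The probe set 1417534_at fell by 0.30 ± 0.06 in the same comparison (adjusted p = 0.0125, limma), with levels of 5.85 and 5.84 in ex-iTreg, 6.18 and 6.12 in iTreg and 5.88 and 5.95 in nTreg arrays. With the mean of all 4 Itgb5 probe sets the difference in ex-iTreg minus iTreg was -0.18. Both tested Itgb5 probe sets rose in iTreg minus nTreg, by 0.67 ± 0.06 and by 0.24 ± 0.06 (adjusted p = 0.000908 and 0.0365, limma). The beta chain Itgb6 was near background in all arrays.

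**Figure D3:**
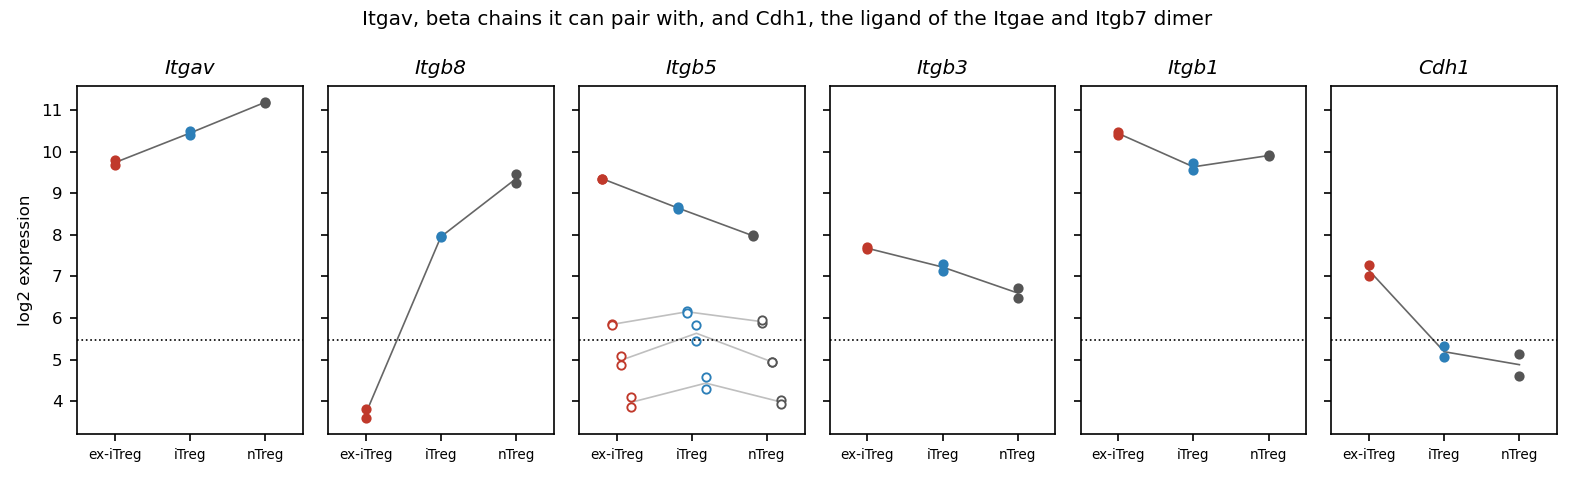
Log2 expression (vertical axis) of Itgav, of beta chains it pairs with and of Cdh1 in ex-iTreg, iTreg and nTreg arrays, 1 point per array with lines through the group means and the filter level of 5.48 dotted; all annotated probe sets are drawn for Itgb5 and the brightest for the other genes. Itgav and Itgb8 are lowest in ex-iTreg arrays, Itgb3, Itgb1 and Cdh1 are highest there, and the Itgb5 probe sets disagree.

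Itga6, a laminin-binding chain, was highest in iTreg arrays and lowest in ex-iTreg arrays. It read 9.35 and 9.27 in ex-iTreg arrays, 10.20 and 10.10 in iTreg arrays and 9.86 and 9.90 in nTreg arrays on 1422445_at. Itga6 fell by 0.84 ± 0.07 in ex-iTreg minus iTreg and by 0.57 ± 0.07 in ex-iTreg minus nTreg (limma, adjusted p = 0.000426 and 0.00142). It rose by 0.27 ± 0.07 in iTreg minus nTreg (adjusted p = 0.0316, limma), and this call did not outlast leaving out any single array. The myeloid markers were also highest in iTreg arrays, and their part in the Itga6 differences was not tested.

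The probe set 1422444_at gave Itga6 the same order with larger steps. It read 8.71 and 8.59 in ex-iTreg arrays, 10.14 and 10.17 in iTreg arrays and 9.49 and 9.38 in nTreg arrays. It fell by 1.51 ± 0.08 in ex-iTreg minus iTreg, 2.84-fold lower, and rose by 0.72 ± 0.08 in iTreg minus nTreg (adjusted p = 6.75e-05 and 0.00152, limma), calls that passed in every alternative that was run. Itgb4, which pairs with Itga6 alone, was not tested, with 1 of 6 arrays above the filter level at 5.54. Lamc1, a laminin chain and so part of the ligand of Itga6, fell by 1.71 ± 0.09 in ex-iTreg minus iTreg and by 2.29 ± 0.09 in ex-iTreg minus nTreg on its brightest probe set, and its other tested probe set differed by -0.10 and -0.28 (adjusted p = 0.22 and 0.0128, limma).

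**Figure D4:**
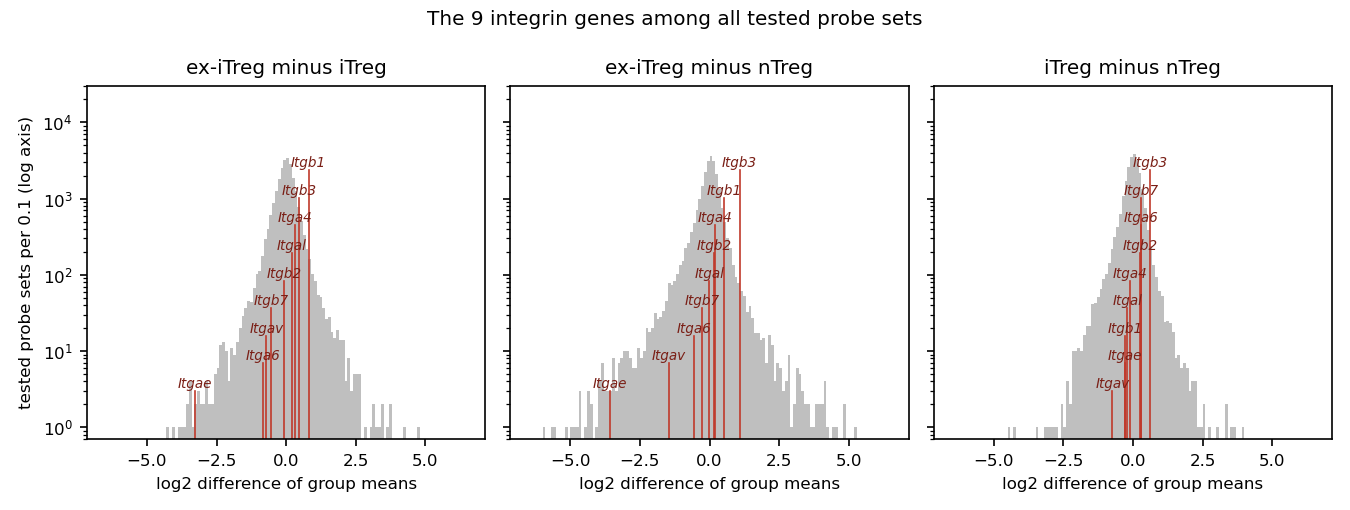
Number of tested probe sets (vertical log axis) by log2 difference of group means in bins of 0.1 (horizontal axis) for ex-iTreg minus iTreg, ex-iTreg minus nTreg and iTreg minus nTreg, with the brightest probe set of each of the 9 genes marked in red; the heights of the red lines only separate the labels. Itgae lies in the far left tail in both comparisons of ex-iTreg arrays, and in iTreg minus nTreg the 9 genes lie between -0.74 (Itgav) and 0.62 (Itgb3).

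Among the other alpha chains, 11 of 13 were annotated and 4 were tested. Itga7, a laminin receptor chain of muscle, read 7.41 and 7.46 in ex-iTreg arrays, 5.86 and 6.07 in iTreg arrays and 6.24 and 6.16 in nTreg arrays. It rose by 1.47 ± 0.09 in ex-iTreg minus iTreg and by 1.24 ± 0.09 in ex-iTreg minus nTreg (limma, adjusted p = 0.000127 and 0.00015). Itga2b, the platelet chain that pairs with Itgb3, did not pass in any comparison (0.20 ± 0.12 in ex-iTreg minus iTreg, adjusted p = 0.258, limma), and neither did Itga9 (0.10 ± 0.11, adjusted p = 0.51, limma). Itga3 passed in ex-iTreg minus nTreg (-0.30 ± 0.09, adjusted p = 0.0435, limma) on 1 of its 3 probe sets, a call lost without either ex-iTreg pool or either nTreg pool. Itga1, Itga2, Itga5, Itga8, Itga10 and Itgam were near background in every array.

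Genes of the machinery that switches integrins to their binding state were called at shares near or below those of all tested probe sets. Of 17 tested genes, 1 rose and 5 fell in ex-iTreg minus iTreg, 3 rose and 4 fell in ex-iTreg minus nTreg, and 0 rose and 2 fell in iTreg minus nTreg, with medians of 0.02, -0.06 and 0.04 against 0.00, 0.03 and 0.02 over all tested probe sets. These are 35.3%, 41.2% and 11.8% of the list, against 37%, 36.4% and 29.1% of all tested probe sets. Fermt3, the kindlin that binds beta chain tails in blood cells, fell by 0.40 ± 0.06 in ex-iTreg minus iTreg (adjusted p = 0.00441, limma), and Tln1, the talin that does the same, fell by 0.28 ± 0.07 (adjusted p = 0.019, limma), lost when either ex-iTreg pool or either iTreg pool was left out, and its other 2 tested probe sets did not pass (-0.14 and -0.18, adjusted p = 0.431 and 0.155, limma). Rasgrp2, an activator of the switch protein Rap1, rose by 0.67 ± 0.13 in ex-iTreg minus nTreg (limma, adjusted p = 0.00889, lost without ex-iTreg pool 2), and its other 3 tested probe sets rose by 0.94, 1.00 and 1.23. Skap2, an adaptor of this pathway, fell by 0.42 ± 0.07 in iTreg minus nTreg (adjusted p = 0.00875, limma), a call lost without iTreg pool 2, and its other 2 tested probe sets did not pass (-0.33 and -0.18).

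Genes of the adhesion complex, which ties engaged integrins to actin, rose in 3 and fell in 6 of 12 cases in ex-iTreg minus iTreg, rose in 3 and fell in 2 in ex-iTreg minus nTreg, and rose in 4 and fell in 0 in iTreg minus nTreg. The called shares of 75%, 41.7% and 33.3% stand against 37%, 36.4% and 29.1% of all tested probe sets. Parvg, a parvin of blood cells, fell by 0.98 ± 0.10 in ex-iTreg minus iTreg, and Actn4, an actinin, fell by 0.58 ± 0.06 (adjusted p = 0.000729 and 0.00117, limma). Both were highest in iTreg arrays, as the myeloid markers were, and the part of those markers was not tested. The other tested Parvg probe set differed by -0.44 (adjusted p = 0.228, limma). Vcl, encoding vinculin, rose by 0.50 ± 0.07 in ex-iTreg minus iTreg (adjusted p = 0.00318, limma). Actn1, another actinin, rose by 1.61 ± 0.06 in ex-iTreg minus nTreg and by 1.32 ± 0.06 in iTreg minus nTreg (adjusted p = 1.26e-05 and 0.000108, limma). Its other 2 tested probe sets rose by 0.29 and 0.66 in iTreg minus nTreg. In ex-iTreg minus nTreg they differed by 0.21 and 0.60, and the first did not pass (adjusted p = 0.0873 and 0.00503, limma).

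Of 8 tested integrin ligands and counter-receptors, 1 rose and 3 fell in ex-iTreg minus iTreg, 2 rose and 2 fell in ex-iTreg minus nTreg, and 2 rose and 1 fell in iTreg minus nTreg, which is 50%, 50% and 37.5% of them against 37%, 36.4% and 29.1% of all tested probe sets. Cdh1, which encodes E-cadherin, the ligand of the Itgae and Itgb7 dimer, was the 1 that rose in ex-iTreg minus iTreg. It read 7.02 and 7.27 in ex-iTreg arrays, 5.05 and 5.33 in iTreg arrays and 5.14 and 4.61 in nTreg arrays. The iTreg and nTreg arrays were near background, so no size is given for the difference. Cdh1 passed the filter only through the ex-iTreg arrays and so had to be higher there, and the counts and shares of both comparisons of ex-iTreg arrays include it. Icam1, a ligand of LFA-1, fell by 1.58 ± 0.08 in ex-iTreg minus iTreg and by 1.41 ± 0.08 in ex-iTreg minus nTreg (limma, adjusted p = 5.36e-05 and 4.58e-05). Vcam1, the ligand of the Itga4 and Itgb1 dimer, fell by 1.16 ± 0.09 in ex-iTreg minus iTreg and rose by 1.33 ± 0.09 in iTreg minus nTreg (adjusted p = 0.000347 and 0.000348, limma). Macrophages carry Vcam1, and the myeloid markers were likewise highest in iTreg arrays; their part in this was not tested. Of its other 2 tested probe sets, 1415989_at moved the same way (-0.60 and 0.69) and 1451314_a_at passed in neither comparison (-0.03 and 0.26).

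In the TGF-beta pathway, whose signal induces Itgae, 6 of 12 tested genes rose and 4 fell in ex-iTreg minus iTreg, 2 rose and 5 fell in ex-iTreg minus nTreg, and 1 rose and 5 fell in iTreg minus nTreg. The called shares were 83.3%, 58.3% and 50%, against 37%, 36.4% and 29.1% of all tested probe sets. The receptor chains split. Tgfbr1, the kinase chain that passes the signal on, fell by 1.53 ± 0.07 in ex-iTreg minus iTreg and by 2.14 ± 0.07 in ex-iTreg minus nTreg (limma, adjusted p = 3.81e-05 and 5.29e-06). Tgfbr2, the chain that binds the ligand first, rose by 0.94 ± 0.06 and by 0.83 ± 0.06 (adjusted p = 0.000152 and 0.000151, limma), and Tgfbr3, a co-receptor, rose by 2.57 ± 0.08 and by 4.03 ± 0.08 (adjusted p = 1.01e-05 and 1.13e-06, limma). Pmepa1, a target gene of the pathway, fell by 0.78 ± 0.09 and by 1.07 ± 0.09 (adjusted p = 0.00126 and 0.000263, limma), with both of its other tested probe sets lower as well. Tgif1, a repressor in the pathway, fell by 0.85 ± 0.06 in iTreg minus nTreg (adjusted p = 0.000377, limma).

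Genes of tissue residency, a state in which Itgae is commonly seen, moved in both directions. Of 9 tested, 3 rose and 1 fell in ex-iTreg minus iTreg, 2 rose and 5 fell in ex-iTreg minus nTreg, and 1 rose and 5 fell in iTreg minus nTreg, so that 44.4%, 77.8% and 66.7% were called against 37%, 36.4% and 29.1% of all tested probe sets. Xcl1, among the 3 that rose in ex-iTreg minus iTreg, was under the filter level in all iTreg and nTreg arrays. It passed the filter only through the ex-iTreg arrays and so had to be higher there. Cxcr6, a chemokine receptor of resident T cells, rose by 2.54 ± 0.09 in ex-iTreg minus iTreg, while Prdm1, encoding Blimp-1, fell by 2.11 ± 0.07 (adjusted p = 1.47e-05 and 1.52e-05, limma). Ahr, the aryl hydrocarbon receptor, and Bhlhe40 fell by 0.80 ± 0.08 and by 0.67 ± 0.06 in iTreg minus nTreg (adjusted p = 0.00104 and 0.000933, limma), and in ex-iTreg minus iTreg they differed by -0.16 and 0.13 (adjusted p = 0.154 and 0.147, limma).

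Gut homing and recirculation genes, with which Itga4 and Itgb7 are linked, rose in 2 and fell in 4 of 10 cases in ex-iTreg minus iTreg, in 3 and 4 in ex-iTreg minus nTreg, and in 4 and 2 in iTreg minus nTreg. That is 60%, 70% and 60% of the list, where 37%, 36.4% and 29.1% of all tested probe sets were called. Gpr15, a receptor for homing to the large intestine, fell by 2.82 ± 0.07 in ex-iTreg minus iTreg and fell by 2.59 ± 0.07 in ex-iTreg minus nTreg (limma, adjusted p = 5.86e-06 and 2.5e-06). Ccr9, a receptor for homing to the small intestine, fell by 1.55 ± 0.08 in ex-iTreg minus iTreg and by 1.46 ± 0.08 in iTreg minus nTreg (adjusted p = 6.85e-05 and 0.000158, limma), a graded order like that of Itgav. Cd44, a hyaluronan receptor of activated T cells, rose by 0.63 ± 0.06 in ex-iTreg minus iTreg and fell by 0.45 ± 0.06 in iTreg minus nTreg (adjusted p = 0.000702 and 0.00352, limma), with iTreg arrays lowest as for Itgb1. Selplg, the selectin ligand PSGL, fell by 0.74 ± 0.07 in ex-iTreg minus iTreg and rose by 0.45 ± 0.07 in iTreg minus nTreg (adjusted p = 0.000724 and 0.00636, limma), with iTreg arrays highest as for Itgb7.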

How the data were processed

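Expression was measured on 6 Affymetrix arrays, 2 for each of 3 sorted populations. The deposited values are log2 expression per probe set, for which the submitters' processing notes name RMA, run by the authors with unnamed software. From them, 64 control probe sets were left out, and probe sets above 5.48 in at least 2 of 6 arrays were tested, 23484 in all. Gene names came from the platform annotation (1 symbol for 34945 of 45037 probe sets). Differences were fitted with limma 3.58.1 in R 4.3.3 (lmFit, eBayes) in 1 model of 3 group means, with 3 residual and 3.37 prior degrees of freedom. The 9 members and all gene lists were chosen with earlier results of these data known. Named genes were the members, the other tested integrin chains and, per list, up to 4 genes with the largest absolute t. Pairing within an array was tested with extra rows of log2 ratios. The fit was tested on 1 simulated draw of 23484 probe sets per comparison, with normal noise and 67 changes of 2-fold. It recovered 74.6%, 71.6% and 82.1% of these in ex-iTreg minus iTreg, ex-iTreg minus nTreg and iTreg minus nTreg. False calls numbered 0, 7 and 4. Far fewer probe sets were changed there than were called in the data, so recovery in the data may differ. Alternatives changed the filter, scaling, spread model, samples, probe sets and a block for the pool number. The number of arrays limits the precision. The authors' comparison with conventional T cells is not analysed here.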

Additional observations from a re-analysis of the deposited data

How the results depend on the processing

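Over the alternatives, 318 of 378 repeats on the brightest probe sets of the 9 genes kept direction and call, 46 lost the call, 11 gained it and 3 changed sign. The change of Itgae relative to the other chains passed for 8, 8 and 5 of 8 chains in ex-iTreg minus iTreg, ex-iTreg minus nTreg and iTreg minus nTreg, and for 8, 8 and between 5 and 7 under the alternatives. The number of the 9 genes called was between 5 and 8 in both comparisons of ex-iTreg arrays. In iTreg minus nTreg it was 7 in the main setting, 2 with no filter on dim probe sets, 4 with only the 2 groups compared and between 2 and 4 with an array left out. All called probe sets numbered 8694, 8558 and 6826, and between 4894 and 9112, 5167 and 7930, and 3399 and 5434 with an array left out. With the pool number as a replicate block these counts were 8011, 7814 and 5853, and the block left 7, 6 and 6 of the 9 genes called. Pools of the same number did not deviate together (correlations of -0.04, -0.09 and -0.01 across probe sets), so the labels' numbers were not taken as pairs. Quantile normalization and median centring moved the median of all tested probe sets by at most 0.0128.

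Changes of sign concerned differences that did not pass in the main setting, except for Itgb5, and Itgal passed with its sign changed. In ex-iTreg minus iTreg these were Itga3 (-0.21 to 0.00 with an array left out, 0.00 without iTreg pool 1 and 0.01 with the mean of all probe sets), Itga9 (-0.05 to 0.24, lowest without iTreg pool 1), the Itgav probe set 1432296_a_at (-0.15 to 0.03, highest without ex-iTreg pool 2), Itgb5 (-0.18 with the mean of all probe sets) and Skap2 (0.00 with quantile normalization, 0.01 without iTreg pool 1 and 0.03 without ex-iTreg pool 2). In ex-iTreg minus nTreg they were the Itga4 probe set 1450155_at (-0.05 to 0.33, lowest without nTreg pool 2) and Itgal (0.03 without nTreg pool 1, 0.01 without ex-iTreg pool 2 and 0.29 with the mean of its probe sets, adjusted p = 0.011, limma). In iTreg minus nTreg they were Itga2b (-0.14 to 0.24, lowest without nTreg pool 1), Itga9 (0.00 without iTreg pool 2), the Itgal probe set 1425367_at (-0.09 to 0.13, -0.07 without nTreg pool 2 and -0.09 without iTreg pool 1), the Itgb3 probe set 1421511_at (-0.35 to 0.09, highest without iTreg pool 1) and Tln1 (-0.01 without nTreg pool 2). The change of Itgae relative to Itga4 was 0.10 with the mean of all probe sets, and relative to Itgb1 -0.10 to 0.04 with an array left out, 0.00 without nTreg pool 1 and 0.04 without iTreg pool 1. The cause of these was not tested. A count over all probe sets was not computed for the mean of all probe sets of a gene, since it counts genes.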
